A study of Mus musculus with 6 samples.

Results

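Muscle stem cells with little reduced glutathione (GSH) from old mice, called old GSH-low here, were compared with muscle stem cells from young mice. The genes compared are those with an RPKM of at least 1 in 2 or more of the 6 libraries of the study, which are 10609 of the 12067 genes in the authors' table. RPKM is a gene's reads divided by its length and by the size of its library. The libraries compared are 4 of the 6, namely 2 of old GSH-low cells and 2 of young cells. The other 2 libraries, of old cells with much reduced glutathione (old GSH-high), are given beside the results.

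All mice were male C57BL/6, with no transgene or drug named in the labels. The cells were sorted as CD45-, CD31-, Sca1- and VCAM+ and were labelled with 5 uM of ThiolTracker Violet, which binds reduced thiols and fluoresces. Each young library came from 1 animal of 4 months, and the stained young cells were kept whole because almost all of them were GSH-high per the labels. Each old library came from 2 pooled animals of 23 months and from 1 of the 2 gates on the dye. Age, the gate and the pooling therefore differ together between young and old GSH-low libraries and cannot be told apart in that comparison. The old GSH-high libraries share the age and the pooling with old GSH-low and differ from it by the gate. Whether old libraries of the same number come from the same pool of animals is not given in the sources used here. Libraries were primed with oligo(dT), and a NextSeq 500 read 150 bp from 1 end.

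Satellite cells, the stem cells of skeletal muscle, lie between a fibre and its sheath of basal lamina, rest in quiescence and divide to rebuild fibres after injury. They express the transcription factor Pax7, and on activation turn on Myod1 and then Myog as they commit to become muscle. Glutathione is made from glutamate, cysteine and glycine in a pair of ATP-driven steps, and it reduces peroxides and is joined to reactive compounds by glutathione transferases. Old muscle is known for more connective tissue, for chronic inflammatory signals and for slower repair.

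Old GSH-low cells held far more RNA of many tendon genes and of MHC class II than young cells, and most interferon-stimulated genes rose. They held less RNA of heat shock chaperones, of respiratory chain subunits and of some basement membrane chains. Old GSH-high had similar median log2 fold changes against young for interferon-stimulated genes (0.86), heat shock chaperones (-0.58) and respiratory chain subunits (-0.49). In old GSH-low these were 0.85, -0.55 and -0.5. Of the 10609 genes, 3901 (36.8%) changed at an adjusted p under 0.05, of which 1919 (18.1% of all genes) rose and 1982 (18.7%) fell. Counts of rises and falls in the lists below are to be read beside these shares of all genes. The call is limma's moderated test with Benjamini-Hochberg adjustment over all genes, fitted on log2(RPKM + 1) over the 6 libraries. The sizes were unequal: 473 genes rose by at least 2-fold and 119 fell by as much, so that 79.9% of the changes of that size were rises. For 4-fold the counts were 122 rises and 4 falls. The median log2 fold change of all genes was -0.02, and the median size among changed genes was 0.5. Scaled by library size only, 2254 genes rose and 1492 fell, so that rises were 60.2% of the changed genes beside 49.2% above. Without old GSH-low library 1 the count of changed genes was 2067, with 1248 rises and 819 falls. Without old GSH-low library 2 the falls were 1312. A fit of the recovered reads with limma-voom, which has no added RPKM of 1, gave 812 rises and 232 falls of at least 2-fold.

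**Figure D1:**
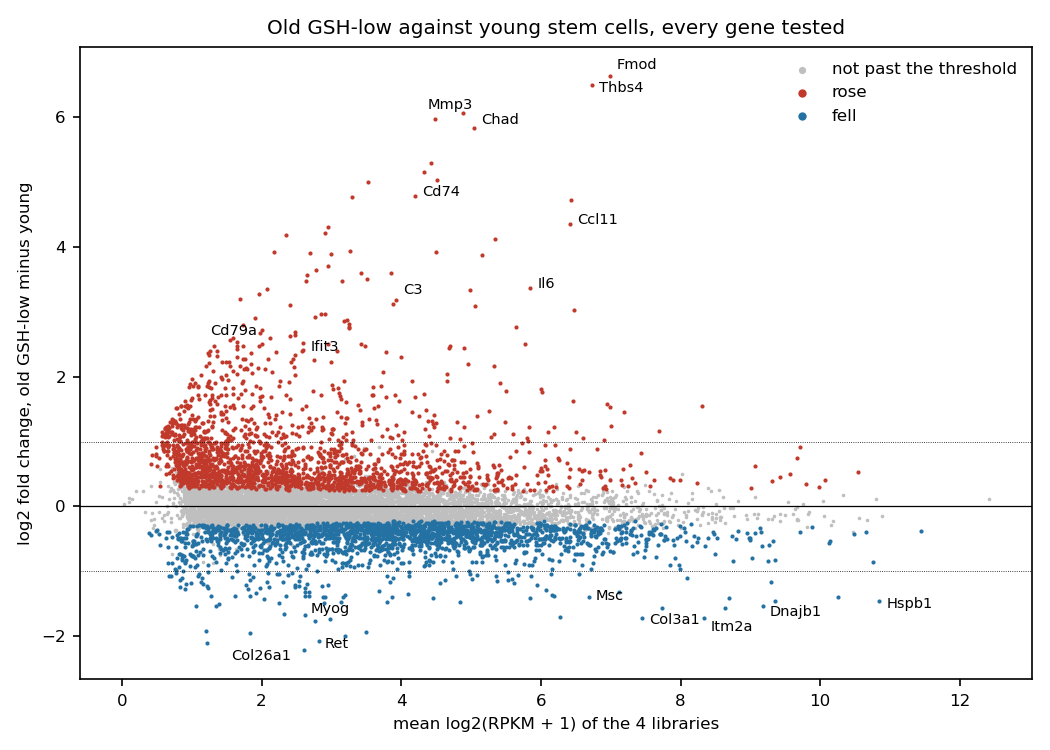
Each dot is 1 of the 10609 genes. The x axis is its mean log2(RPKM + 1) over the 4 libraries compared. The y axis is the log2 fold change of old GSH-low minus young. Red dots rose and blue dots fell at an adjusted p under 0.05, grey dots did not pass, and the dotted lines mark 2-fold. The cloud of rises reaches beyond 6 while only 4 genes fell by more than 4-fold.

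Reads recovered from the RPKM values totalled 63.09 and 60.02 M (mega) reads in the young libraries, 68.75 and 60.72 M in old GSH-high and 50.67 and 46.97 M in old GSH-low. With 2 libraries a group, every p-value rests on the spread within the 3 pairs of libraries, moderated across genes, and no library stood apart from its group. Along principal component 1, with 72.7% of the variance, the scores ran from -35.17 and -31.7 in the young libraries through 12.24 and 9.21 in old GSH-high to 25.11 and 20.3 in old GSH-low. Between old GSH-high and young 3051 genes (28.8%) changed, and between the 2 old fractions 571 genes (5.38%). Both comparisons share libraries with the main one. The satellite cell gene Pax7 was present in all 6 libraries, between 7.64 and 12.6 RPKM. Of the 473 rises of 2-fold or more, the old GSH-high mean lay between young and old GSH-low in 384, and 245 also differed between the 2 old fractions. Of the 119 falls of that size, the old GSH-high mean lay between in 78, and 22 differed between the old fractions.

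Many of the steepest rises were genes of tendon and dense connective tissue, and others, such as Mmp3, Cd74 and Ccl11, are described with their own groups. Fmod (fibromodulin, a proteoglycan that guides the growth of collagen fibrils; chromosome 1, 134037254 to 134048277 on the plus strand, GRCm38) was at 10.2 and 13.4 RPKM in the young libraries, 355.5 and 277.8 in old GSH-high and 1364.4 and 1183.2 in old GSH-low. Both old GSH-low libraries were above every other library, and the log2 fold change against young was 6.64 ± 0.15 (SE; adjusted p = 3.52e-08), with a ratio of the group means of 107.9. Values after ± are standard errors of log2 fold changes throughout. Thbs4 (thrombospondin 4, a matrix protein of tendon; chromosome 13, 92751590 to 92794818, minus strand) was at 11.9 and 8.79 RPKM in young, 302.0 and 220.2 in old GSH-high and 1117.1 and 909.0 in old GSH-low, a log2 fold change of 6.49 ± 0.18. The tendon cell membrane protein Tnmd (tenomodulin) was at 2.47 and 3.57 RPKM in young, 29.6 and 27.2 in old GSH-high and 136.0 and 123.9 in old GSH-low, a log2 fold change of 5.04 ± 0.13 (adjusted p = 5.49e-08). In each of these genes the 3 groups of libraries did not overlap, with young lowest and old GSH-low highest. Further members with steep rises were Angptl7 (a secreted factor of the angiopoietin-like family, 6.06 ± 0.12), Chad (chondroadherin, 5.84 ± 0.14), Comp (cartilage oligomeric matrix protein, 5.30 ± 0.18), Cilp (5.15 ± 0.19), Kera (keratocan, 4.31 ± 0.13) and Ptx4 (a pentraxin, 4.18 ± 0.09), all on the log2 scale.

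The transcription factors of tendon differed from each other in their pattern over the libraries. Scx (scleraxis, which directs tendon formation) was at 2.74 and 2.15 RPKM in young, 2.69 and 2.62 in old GSH-high and 6.12 and 6.33 in old GSH-low. Its young and old GSH-high libraries overlapped, and the log2 fold change of old GSH-low over young was 1.07 ± 0.11 (adjusted p = 0.00011). Mkx (mohawk, a homeobox factor of tendon) was at 0.635 and 0.495 RPKM in young and already at 6.25 and 5.05 in old GSH-high, with 9.66 and 8.4 in old GSH-low, a log2 fold change of 2.68 ± 0.12. Egr1, which is a tendon factor as well as an immediate early gene, fell by 0.86 ± 0.10 on the log2 scale. Of 18 tenocyte markers tested 16 rose and 1 fell (Egr1), with a median log2 fold change of 3.52, beside -0.02 over all genes. Their summed level was 2561.8 to 2616.7 RPKM in young, 2169.3 to 2494.4 in old GSH-high and 4488.3 to 5029.7 in old GSH-low, where the sums of the first 2 groups consist mostly of Egr1. In bulk RNA a larger number of cells of a type and more RNA per cell cannot be told apart. Whether tendon cells within the gate have a part in these rises was not tested.

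Small leucine-rich proteoglycans, the family of matrix proteins that coat collagen fibrils, rose without exception: 12 of 12 members tested passed, with a median log2 fold change of 2.44. Dcn (decorin; chromosome 10, 97479609 to 97518143) was at 13.9 and 17.8 RPKM in young, 185.4 and 163.2 in old GSH-high and 482.0 and 404.6 in old GSH-low, a log2 fold change of 4.72 ± 0.13 (adjusted p = 9.93e-08). Aspn (asporin) changed by 5.00 ± 0.15, Ogn (osteoglycin) by 2.50 ± 0.09, Lum (lumican) by 2.38 ± 0.27 and Prelp by 1.46 ± 0.12. Bgn (biglycan) had the most even levels among the abundant members, at 24.1 and 22.8 RPKM in young and 40.9 and 44.7 in old GSH-low (0.84 ± 0.08). Against old GSH-high, 9 of the 12 were higher in old GSH-low.

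Collagens, the fibre and sheet proteins of the matrix, split by type. Of 30 chains tested 13 rose, 9 fell and 8 did not pass, with a median of 0.03. The rises included both chains of type I, the fibril of tendon and bone. Col1a1 was at 19.1 and 29 RPKM in young, 33.1 and 41.6 in old GSH-high and 89.3 and 77.6 in old GSH-low, a log2 fold change of 1.78 ± 0.18 (adjusted p = 0.000141), and Col1a2 changed by 2.48 ± 0.13. Further chains rose with them: Col12a1 by 2.65 ± 0.11, Col11a2 by 2.27 ± 0.10, Col11a1 by 1.53 ± 0.10 and Col22a1, a chain of the muscle-tendon junction, by 1.52 ± 0.10. The short-chain collagens Col8a1 and Col8a2 rose by 2.87 ± 0.12 and 2.59 ± 0.12. Falls were found in type III, in the main chains of type IV, in 2 of 3 chains of type V, in Col6a1 and Col6a6, in type XV and in Col26a1. Col3a1 was at 267.9 and 372.3 RPKM in young, 111.8 and 120.0 in old GSH-high and 89.3 and 101.4 in old GSH-low, with both young libraries above all old ones and a log2 fold change of -1.72 ± 0.15 (adjusted p = 5.06e-05). Col4a1, a network chain of basement membrane, was at 178.3 and 265.5 RPKM in young and 92.1 and 81.3 in old GSH-low (-1.32 ± 0.17), and Col4a2, encoded beside it, changed by -1.14 ± 0.14. The minor basement membrane chains Col4a5 and Col4a6 moved the other way, by 1.22 ± 0.13 and 0.95 ± 0.14, from under 1 RPKM in young. Col5a1 and Col5a3, made by quiescent satellite cells under Notch control, changed by -1.06 ± 0.09 and -1.18 ± 0.16, and Col5a2 by -0.27 ± 0.11 (adjusted p = 0.0986). Col26a1 fell most, from 11.8 and 12.6 RPKM in young to 1.78 and 1.9 in old GSH-low (-2.22 ± 0.11, adjusted p = 1.88e-06). Between the old fractions 11 chains were higher and 0 lower in old GSH-low. None of the 9 chains that fell was among them, while Col1a1 was higher in old GSH-low by 1.14 (adjusted p = 0.00646).

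**Figure D2:**
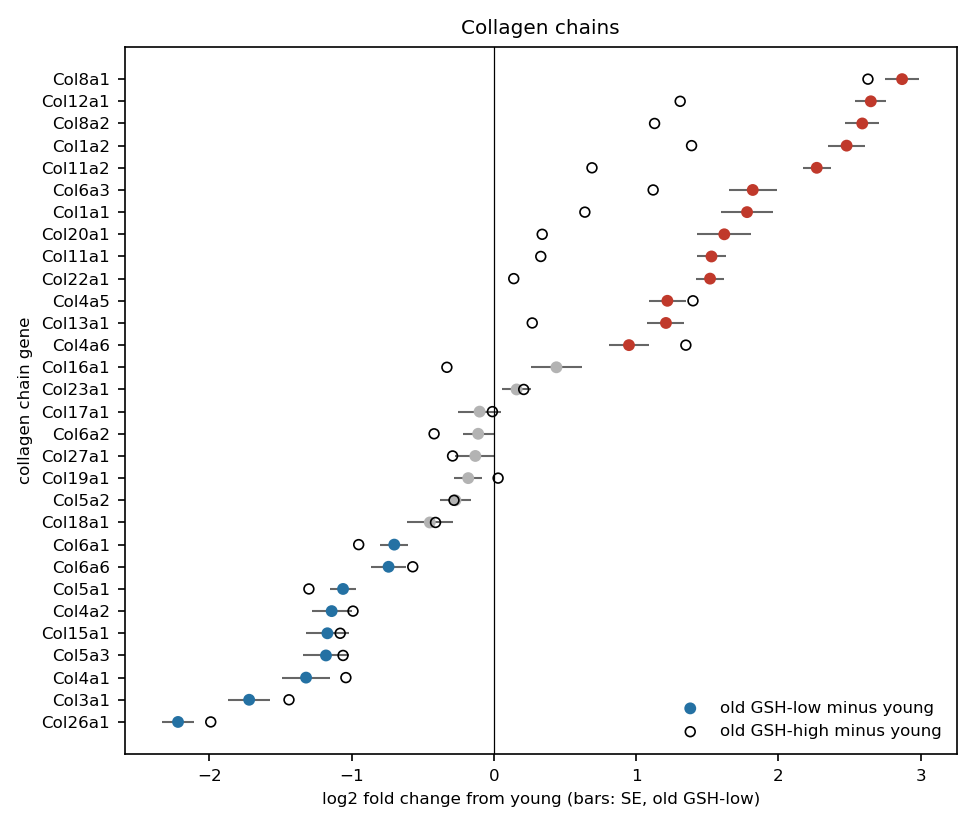
Log2 fold changes of the 30 collagen chains, one row each: filled dots are old GSH-low minus young with SE bars (red rose, blue fell, grey did not pass) and open circles are old GSH-high minus young. The blue dots and their open circles lie close together, while the red dots of Col1a1, Col1a2 and Col12a1 lie to the right of their open circles.

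Other matrix proteins and the enzymes that cut them moved in both directions. Of 33 laminins, integrins and related glycoproteins 15 rose and 6 fell. Postn (periostin) rose by 2.62 ± 0.17, Thbs2 by 2.16 ± 0.18, Tnc (tenascin C) by 1.74 ± 0.11 and Fn1 (fibronectin, a niche protein of satellite cells) from 2.4 and 4.18 to 9.8 and 7.82 RPKM (1.22 ± 0.19). Sparc (osteonectin, a collagen-binding protein) was at 741.9 and 616.8 RPKM in young and 225.2 and 283.8 in old GSH-low, a log2 fold change of -1.42 ± 0.15. The laminin chains Lamc1 and Lamc3 fell by 1.05 ± 0.12 and 0.97 ± 0.15, while Lama4 and Lama3 rose by 0.88 ± 0.13 and 0.88 ± 0.11. Of 24 metalloproteinases and inhibitors 13 rose and 4 fell. Mmp3 (stromelysin-1; chromosome 9, 7445822 to 7455975, plus strand) was at 2.21 and 1.47 RPKM in young, 60.7 and 59.3 in old GSH-high and 183.2 and 168.0 in old GSH-low, a log2 fold change of 5.97 ± 0.12 (adjusted p = 2.46e-08). Mmp13 (collagenase-3) was at 1.82 and 0.318 RPKM in young and 25.9 and 20.9 in old GSH-low (3.65 ± 0.29), and its old GSH-high libraries, at 2.06 and 2.24, stood apart from old GSH-low. The inhibitor Timp1 rose as well, from 80.7 and 67.4 to 206.9 and 222.0 RPKM (1.53 ± 0.10). Ctsk (cathepsin K, which digests collagen) rose from 2.29 and 1.87 to 36.9 and 35.6 RPKM (3.60 ± 0.10). Falls were few and less stable in both lists: laminins, integrins and fibronectin had 3 falls without young library 2 or old GSH-low library 1, and matrix metalloproteinases and inhibitors had 2 without any 1 of the 4 libraries compared.

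The genes of MHC class II, the surface molecules with which dedicated immune cells show peptides to T cells, rose from low levels. All 8 members tested rose, with a median log2 fold change of 2.8. Cd74 (the invariant chain, which escorts them) was at 2.86 and 2.18 RPKM in young, 12.7 and 16.8 in old GSH-high and 98.4 and 92.8 in old GSH-low, with 4.78 ± 0.14 as the log2 fold change (adjusted p = 1.12e-07). H2-Ab1, the beta chain of the I-A molecule, was at 1.51 and 0.822 RPKM in young, 4.11 and 5.49 in old GSH-high and 28.4 and 25.5 in old GSH-low (3.71 ± 0.17). H2-DMb2 (a chain of the peptide loading molecule of class II) was at 0.0377 and 0.0682 RPKM in young and 0.0331 and 0.157 in old GSH-high, which overlap, and at 4.08 and 4.54 in old GSH-low (2.33 ± 0.11). H2-DMb2 and H2-DMa passed the filter of 1 RPKM in 2 libraries through old GSH-low alone, so their rises were in part fixed by it. Reads of near-identical H2 genes may be split or shared between them.

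Lymphocyte markers moved beside MHC class II. Of 33 listed 12 were tested, without Ms4a1, Ighm, Pax5, Cd3e and Cd4 among others. All 12 rose. Their summed level was 1.49 to 1.53 RPKM in young, 5.99 to 8.67 in old GSH-high and 37.8 to 42.2 in old GSH-low. With sums this low in young, nearly all could pass the filter of 1 RPKM in 2 libraries only through old libraries. The count of rises was therefore in part fixed by the filter. Cd79a (a subunit of the B-cell receptor) was at 0.689 and 0.701 RPKM in young and 9.45 and 7.76 in old GSH-low (2.50 ± 0.11), and Ccr7 (a chemokine receptor that leads lymphocytes and dendritic cells to lymph vessels) was at 0.0998 and 0.0258 and 8.3 and 9.17 (3.19 ± 0.22). The general leukocyte gene Ptprc, which encodes the CD45 antigen that the sort excluded, was not among the genes tested. On the log2(RPKM + 1) scale the differences of genes this low in young cells are smaller than the ratio of their levels. The part of these cells in the class II and other immune results was not tested.

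Macrophage and neutrophil markers were higher in both old fractions. Of 28 listed 13 were tested, without Adgre1, Csf1r, Itgam, Cx3cr1, Ly6g and Spi1 among others. Of the 13 tested 12 rose. Their summed level was 13.8 to 14.9 RPKM in young, 77.9 to 78.8 in old GSH-high and 71.9 to 76.5 in old GSH-low. Members under 1 RPKM in both young libraries, such as Laptm5, passed the filter of 1 RPKM in 2 libraries through old libraries alone. The count of rises was therefore in part fixed by the filter. Lyz2 (lysozyme) was at 2.36 and 4.95 RPKM in young, 21.3 and 29.1 in old GSH-high and 25.7 and 23.4 in old GSH-low, where the old fractions overlap. Cd14 (a co-receptor for bacterial lipopolysaccharide) rose by 1.94 ± 0.13. Laptm5, a lysosomal protein of blood cells, stood at 0.161 and 0.252 RPKM in young and 0.759 and 1.32 in old GSH-high and at 6.38 and 5.81 in old GSH-low, the only macrophage marker with a rise of old GSH-low over old GSH-high (log2 difference 1.81 ± 0.14).

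Interferon-stimulated genes, the antiviral programme that cells switch on through factors that include Stat2 and Irf9, were raised nearly throughout. Of 49 tested 44 rose, 1 fell (Ifitm2, -0.43 ± 0.11, a call that ended without either old GSH-low library) and 4 did not pass, with a median of 0.85. The share of all genes that rose was 18.1%. The summed level of the 49 moved little, from 1517.8 to 1916.6 RPKM in young to 1921.0 to 2086.6 in old GSH-low. In old GSH-high the sum was 2000.1 to 2034.6 RPKM. Promoters of 4 of these genes are shown because they hold matches to the interferon-stimulated response element, searched as TTTCNNTTT on both strands. They are the 250 bases upstream of the RefSeq start on GRCm38.p6, printed along the gene's own strand with matches in capitals. Positions are counted back from the start, which follows the last base. Ifit1 lies on the plus strand with its promoter at chr19:34640639-34640888, with matches that begin at -104 and -85. Ifit3, in the same gene cluster, has its promoter at chr19:34583279-34583528 on the plus strand, with matches at -156 and -122. Isg15 lies on the minus strand with chr4:156200819-156201068 and 3 overlapping matches, which begin at -77, -71 and -65. Igtp, an interferon-inducible GTPase, lies on the plus strand with chr11:58199306-58199555 and 1 match at -33.
Ifit1: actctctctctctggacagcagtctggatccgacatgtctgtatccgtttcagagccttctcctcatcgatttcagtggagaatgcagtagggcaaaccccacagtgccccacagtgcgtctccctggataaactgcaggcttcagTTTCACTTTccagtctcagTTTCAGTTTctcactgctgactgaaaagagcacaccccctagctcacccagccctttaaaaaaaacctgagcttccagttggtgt
Ifit3: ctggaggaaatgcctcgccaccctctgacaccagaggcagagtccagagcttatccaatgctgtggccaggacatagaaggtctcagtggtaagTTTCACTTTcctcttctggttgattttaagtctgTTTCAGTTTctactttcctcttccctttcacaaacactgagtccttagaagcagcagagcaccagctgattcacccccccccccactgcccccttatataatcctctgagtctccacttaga
Isg15: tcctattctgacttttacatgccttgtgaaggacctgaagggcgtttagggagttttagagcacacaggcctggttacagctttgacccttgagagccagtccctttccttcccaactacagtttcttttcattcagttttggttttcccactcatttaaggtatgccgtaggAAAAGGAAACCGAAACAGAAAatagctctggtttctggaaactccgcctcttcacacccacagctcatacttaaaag
Igtp: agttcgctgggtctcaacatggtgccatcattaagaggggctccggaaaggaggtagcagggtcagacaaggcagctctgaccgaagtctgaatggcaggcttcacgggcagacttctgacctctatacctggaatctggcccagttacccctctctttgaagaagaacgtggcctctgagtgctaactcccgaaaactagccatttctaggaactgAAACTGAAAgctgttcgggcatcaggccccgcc

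A promoter was found in the RefSeq table for 8329 of the 10609 genes tested, and the motif was in 703 of them (8.44%), beside 9.37% of all promoters in the table. It was in 19 of 37 interferon-stimulated genes with a promoter (51.4%), in 10 of 10 interferon-inducible GTPases and in 3 of 17 genes of MHC class I (17.6%). Among genes that rose by at least 2-fold it was in 58 of 342 (17%), and among those that fell by as much in 9 of 85 (10.6%). These are letter matches and no measure of binding.

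Ifit1 (a protein that binds foreign RNA) was at 2.49 and 2.93 RPKM in young, 10.7 and 9.56 in old GSH-high and 19.1 and 17.8 in old GSH-low, a log2 fold change of 2.39 ± 0.10 (adjusted p = 8.87e-07). Ifit3, which stabilises Ifit1, was at 1.47 and 1.57, 6.74 and 7.37 and 12.7 and 14.4 in the same order (2.52 ± 0.10). For both genes the 3 groups were in steps without overlap, and old GSH-low was also above old GSH-high (adjusted p = 0.00176 and 0.00112). Isg15 (a ubiquitin-like modifier) rose in both old fractions, from 10.3 and 8.18 RPKM in young to 26.9 and 26.2 in old GSH-high and 29.9 and 33.9 in old GSH-low (1.69 ± 0.11). Of the signalling factors, Irf7 rose by 1.35 ± 0.10, Irf9 by 1.20 ± 0.10 and Stat2 by 1.37 ± 0.10. Rtp4 (2.07 ± 0.09), Oasl2 (1.47 ± 0.09) and Bst2 (tetherin, 1.20 ± 0.11) are further examples. Between the old fractions 7 members were higher and 1 lower in old GSH-low, and against young 43 had risen in old GSH-high.

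Interferon-inducible GTPases, which attack the vacuoles of intracellular parasites, held a group of 4 that was lower in old GSH-low than in the other old fraction. Of 14 tested 10 rose in old GSH-low, as did 14 in old GSH-high. Igtp was at 5.88 and 5.55 RPKM in young, 19.3 and 17.8 in old GSH-high and 22.2 and 19.7 in old GSH-low (1.71 ± 0.09). Iigp1 was at 2.34 and 3.1, 10.2 and 9.91 and 17 and 15.6 (2.22 ± 0.11). Gbp3 was at 16.3 and 16.3 RPKM in young, 23.3 and 21 in old GSH-high and 16.8 and 16.4 in old GSH-low, which differs from old GSH-high (log2 difference -0.39 ± 0.08, adjusted p = 0.0322) and did not pass against young (adjusted p = 0.83). Gbp4, Gbp9 and Tgtp1 were likewise lower than in old GSH-high and did not pass against young, with levels in old GSH-low of 0.33 and 0.277, 1.05 and 1.02 and 0.164 and 0.279 RPKM. Gbp4 and Tgtp1 passed the filter of 1 RPKM in 2 libraries without old GSH-low. Their difference from old GSH-high was therefore in part fixed by it.

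MHC class I, which shows peptides of nearly every cell, rose more modestly. Of 22 genes 12 rose and 0 fell, with a median of 0.42. B2m (beta-2 microglobulin, the light chain) was at 673.5 and 547.7 RPKM in young, 1074.0 and 1120.5 in old GSH-high and 1194.3 and 1106.8 in old GSH-low (0.92 ± 0.12, adjusted p = 0.000476). Tap1, a subunit of the peptide pump, rose by 0.93 ± 0.11, Psmb8 (an immunoproteasome subunit) by 0.82 ± 0.12 and Nlrc5, the activator of class I genes, by 0.97 ± 0.11. None of the 22 differed between the old fractions. Complement, the cascade of serum proteins that marks targets for lysis, rose in 12 of 15 members and fell in 1, with a median of 0.99. C3, the central component, was at 4.26 and 3.88 RPKM in young, 30.8 and 24.8 in old GSH-high and 52.7 and 38.3 in old GSH-low (3.18 ± 0.15), and C4b (2.92 ± 0.19), C7 (3.35 ± 0.14) and C1s1 (2.77 ± 0.11) rose with it. Clu (clusterin, an inhibitor of lysis) fell from 115.8 and 93.3 to 44.8 and 39.4 RPKM (-1.29 ± 0.12).

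**Figure D3:**
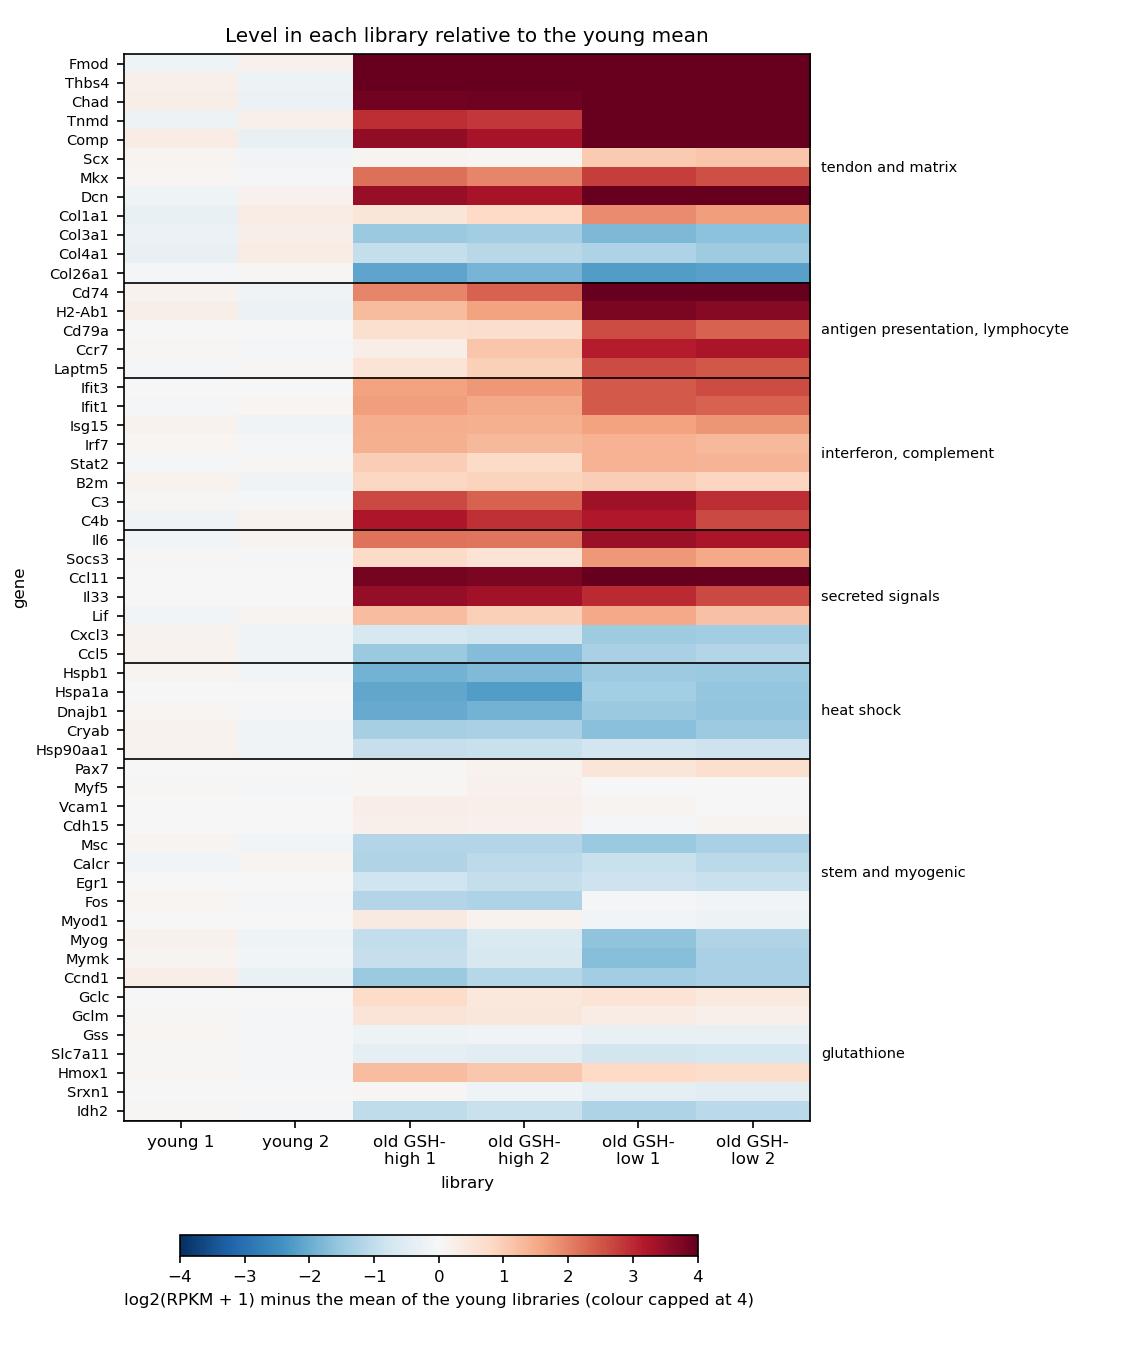
Log2(RPKM + 1) of 56 genes in each of the 6 libraries minus the gene's mean in the young libraries, as colour from blue (lower) to red (higher) and capped at 4 in either direction; columns are libraries and rows are genes grouped by role. Rows such as Tnmd, Cd74 and Ccr7 are darkest red in the 2 old GSH-low columns, and the heat shock rows are blue in all 4 old columns.

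Secreted inflammatory signals rose in part. Il6 (interleukin-6, a cytokine of inflammation and muscle repair) was at 15.6 and 18.5 RPKM in young, 80.5 and 77.6 in old GSH-high and 197.0 and 172.1 in old GSH-low, in steps without overlap (3.36 ± 0.11 on the log2 scale, adjusted p = 1.64e-07). Il33 (an alarm cytokine of stromal cells) was at 2.54 and 2.68 in young, 40.5 and 36.1 in old GSH-high and 27.6 and 21.3 in old GSH-low (2.81 ± 0.12), and here old GSH-high was the higher of the old fractions. Lif rose by 1.35 ± 0.15, and the receptor for oncostatin M, Osmr, by 1.12 ± 0.12. Socs3, the feedback inhibitor of these signals, was at 51.1 and 47 RPKM in young, 83.3 and 72.1 in old GSH-high and 164.6 and 143.3 in old GSH-low (1.63 ± 0.11). Csf2 (a growth factor of granulocytes and macrophages) fell by 1.38 ± 0.10, Il15ra by 0.90 ± 0.10 and Socs1 by 0.69 ± 0.09. Csf2 was at 2.76 and 3.08 RPKM in young and 0.536 and 0.467 in old GSH-low. It passed the filter of 1 RPKM in 2 libraries through young alone, so its fall was in part fixed by it. In the list of cytokines and their receptors 18 of 37 rose and 5 fell; without old GSH-low library 1 the count of rises was 10.

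Of the chemokines, which draw in immune cells, 11 of 22 rose and 3 fell. Ccl11 (eotaxin, which attracts eosinophils; chromosome 11, 82057823 to 82062955) was at 18.2 and 17.5 RPKM in young, 268.2 and 254.9 in old GSH-high and 390.7 and 378.4 in old GSH-low (4.35 ± 0.08, adjusted p = 2.39e-08). Cxcl12, the stromal ligand of Cxcr4, rose from 6.31 and 6.1 to 21.8 and 17.6 RPKM (1.52 ± 0.11), Cx3cl1 by 1.23 ± 0.09 and Ccl21a, a ligand of Ccr7, by 2.22 ± 0.17. None of the neutrophil attractants of the Cxcr2 family passed as a rise. Cxcl3 fell from 102.0 and 84 to 33.8 and 34.6 RPKM (-1.41 ± 0.10), Cxcl5 fell by 0.82 ± 0.11, and Cxcl1, the most abundant chemokine on the RPKM scale, was at 1873.4 and 1575.2 in young and 1900.9 and 1808.2 in old GSH-low (adjusted p = 0.493). Ccl5 fell by 1.23 ± 0.13. Of the 35 NF-kappa B subunits, inhibitors and targets, the transcription factor system behind many of these genes, 8 rose and 4 fell, with a median of 0.05, and the count of falls was 0 without either old GSH-low library and 2 without young library 2. With all libraries the rises and falls were 22.9% and 11.4% of the 35, beside 18.1% and 18.7% of all genes. Rela, the main subunit, was at 279.1 and 283.9 RPKM in young and 272.1 and 264.5 in old GSH-low.

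Factors that senescent cells are known to secrete rose in 24 of 39 and fell in 5. Besides Il6, Mmp3, Mmp13 and Ccl11 the rises included insulin-like growth factor binding proteins. Igfbp6 was at 10.3 and 7.9 RPKM in young, 51.7 and 45.5 in old GSH-high and 98.8 and 100.3 in old GSH-low (3.33 ± 0.12), and Igfbp5 and Igfbp7 rose by 1.01 ± 0.11 and 0.89 ± 0.08. Spp1 (osteopontin) was at 8.1 and 0.898 RPKM in the young libraries, which stand far apart, and at 61.6 and 39.3 in old GSH-low. The growth factors Areg and Ereg fell by 1.38 ± 0.17 and 1.26 ± 0.12, and Angptl4 by 0.97 ± 0.09. The cell cycle inhibitor Cdkn2a (p16), a marker of senescence, was not among the genes tested, and Cdkn1a (p21) was at 122.7 and 97.7 RPKM in young and 82.3 and 91.2 in old GSH-low (-0.33 ± 0.12 on the log2 scale, adjusted p = 0.0497), a call that ended in every alternative run other than the fit without young library 2, the stricter filter and limma-voom. Prostaglandin genes rose in 8 of 12 and fell in 0. The inducible cyclooxygenase Ptgs2 was at 1.3 and 2.13 RPKM in young and 24.3 and 16.5 in old GSH-low (2.97 ± 0.20), and Ptgis, which makes prostacyclin, rose by 2.34 ± 0.12.

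**Figure D4:**
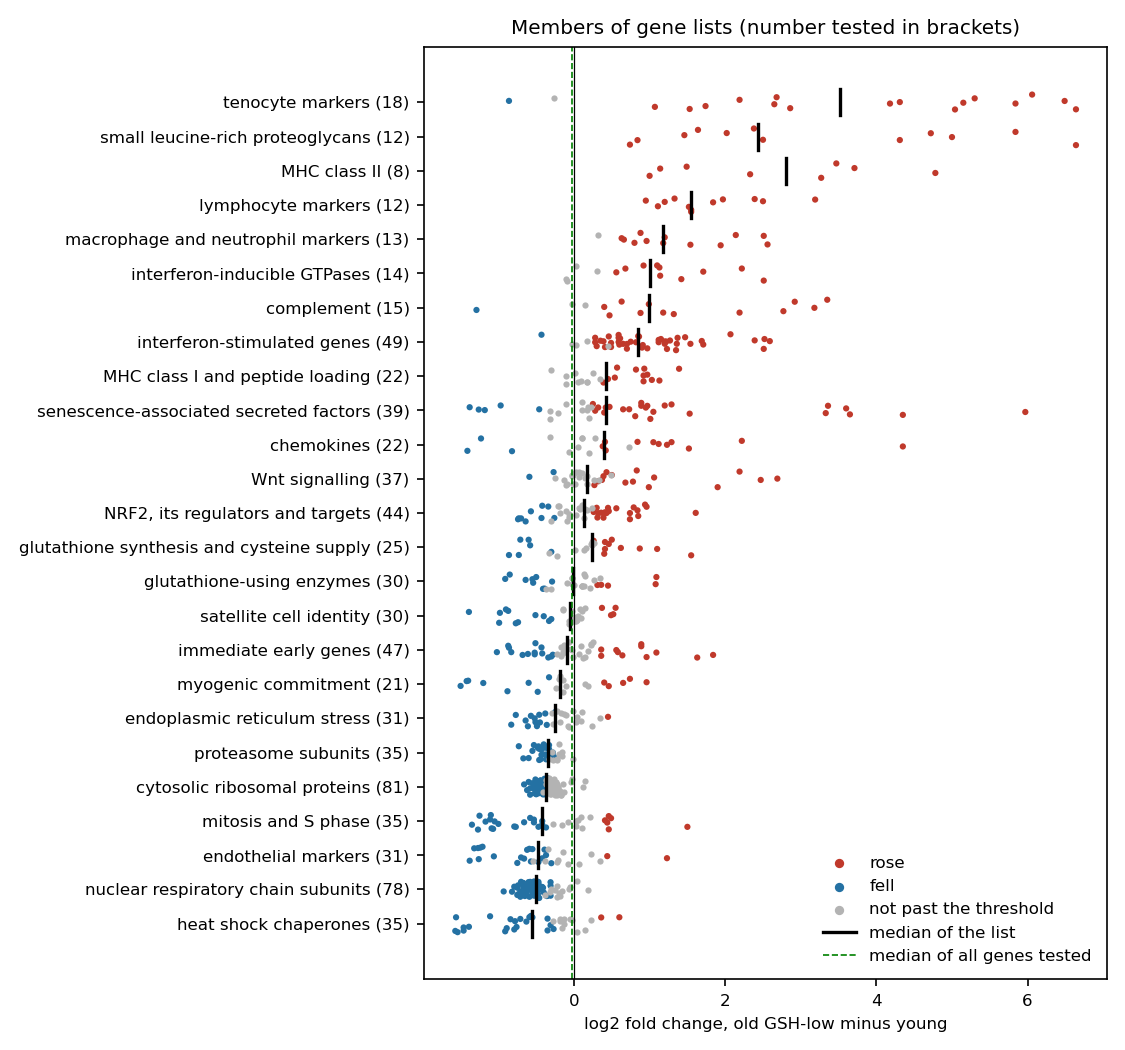
Log2 fold changes of old GSH-low minus young for the members of 25 lists, one row each: red dots rose, blue dots fell and grey dots did not pass, black bars are list medians and the green dashed line is the median of all genes (-0.02). Tenocyte markers, MHC class II and small leucine-rich proteoglycans lie furthest to the right, with medians of 3.52, 2.80 and 2.44, and heat shock chaperones and nuclear respiratory chain subunits to the left, with -0.55 and -0.50.

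Heat shock chaperones, which hold and refold proteins, were among the most abundant genes that fell. Promoters of 3 of them are shown because they hold matches to the inner letters of the heat shock element, searched as GAANNTTC on both strands and marked in capitals, in the same layout as above. Hspb1 lies on the plus strand with its promoter at chr5:135887669-135887918 and matches at -117 and -97. Hspa1a lies on the minus strand with chr17:34972157-34972406 and 1 match at -104. Hspe1 lies on the plus strand with chr1:55087898-55088147 and 1 match at -84.
Hspb1: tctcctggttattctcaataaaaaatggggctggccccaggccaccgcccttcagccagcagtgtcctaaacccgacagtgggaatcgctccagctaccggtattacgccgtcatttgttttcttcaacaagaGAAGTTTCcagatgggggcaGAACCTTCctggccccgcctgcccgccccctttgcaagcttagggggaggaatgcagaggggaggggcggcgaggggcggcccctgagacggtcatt
Hspa1a: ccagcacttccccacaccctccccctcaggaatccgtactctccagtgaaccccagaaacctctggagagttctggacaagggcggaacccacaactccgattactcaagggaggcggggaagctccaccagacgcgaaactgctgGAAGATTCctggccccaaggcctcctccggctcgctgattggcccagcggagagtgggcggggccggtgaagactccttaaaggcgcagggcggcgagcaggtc
Hspe1: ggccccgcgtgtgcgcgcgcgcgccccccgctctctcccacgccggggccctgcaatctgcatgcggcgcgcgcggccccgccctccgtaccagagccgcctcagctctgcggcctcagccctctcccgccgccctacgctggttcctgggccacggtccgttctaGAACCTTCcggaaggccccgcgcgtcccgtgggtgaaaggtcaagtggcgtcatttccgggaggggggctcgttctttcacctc

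The motif was in 9 of 27 heat shock chaperones with a promoter in the table (33.3%), in 0 of 26 genes of endoplasmic reticulum stress, in 10 of 85 genes that fell by at least 2-fold (11.8%), in 6.03% of genes tested and in 6.69% of all promoters.

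Hspb1 (the small chaperone Hsp27) was at 3306.9 and 2817.2 RPKM in young, 814.6 and 890.3 in old GSH-high and 1115.9 and 1097.4 in old GSH-low, a log2 fold change of -1.46 ± 0.11 (adjusted p = 2.53e-05). Hspa1a (inducible Hsp70) was at 1066.9 and 1104.9, 254.1 and 230.6 and 419.1 and 369.0 in the same order (-1.46 ± 0.10, adjusted p = 1.42e-05). Its reads cannot be told apart with certainty from those of its near-identical neighbour Hspa1b (-1.39 ± 0.10). Dnajb1, the Hsp40 partner of Hsp70, was at 1034.7 and 944.4, 243.7 and 263.3 and 351.2 and 329.6 (-1.54 ± 0.10). In Hspa1a and Dnajb1 old GSH-low lay above old GSH-high by 0.70 and 0.42 on the log2 scale (adjusted p = 0.00398 and 0.0375), so that young was highest and old GSH-high lowest without overlap. The mitochondrial chaperonin pair Hspe1 and Hspd1, the small chaperone Cryab (alpha-B crystallin) and Dnaja4 fell by 1.56 ± 0.13, 1.11 ± 0.09, 1.57 ± 0.12 and 1.70 ± 0.08. The major chaperones Hsp90aa1 and Hsp90ab1 fell by 0.79 ± 0.11 and 0.57 ± 0.11, while Hspa8, the constitutive Hsp70, had a log2 fold change of -0.28 ± 0.10 (adjusted p = 0.0618). Hsf1, the factor that drives the inducible genes, was at 30.8 and 28.3 RPKM in young and 31.9 and 33.2 in old GSH-low (adjusted p = 0.256). Of 35 members 22 fell and 2 rose (Hspa2, and Dnajb2, whose call ended without either old GSH-low library), with a median of -0.55 beside 18.7% of all genes that fell.

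Chaperones of the endoplasmic reticulum also fell. Of 31 members 14 fell and 1 rose (Ddit3, 0.45 ± 0.12), with a median of -0.25; without old GSH-low library 1 the falls were 4, and the Ddit3 call ended without either old GSH-low library or young library 2. In old GSH-high 13 members fell against young, with a median of -0.2. Between the old fractions 1 member was higher and 0 lower in old GSH-low. The protein disulfide isomerase Pdia4 was at 120.0 and 115.2 RPKM in young and 60.9 and 70.7 in old GSH-low (-0.83 ± 0.11). Hsp90b1 (Grp94) and P4hb fell by 0.61 ± 0.09 and 0.46 ± 0.08. The sensors and transcription factors of this stress response, Atf6, Ern1, Xbp1 and Atf4, did not pass, with log2 fold changes of 0.02, 0.09, -0.10 and 0.24. In the list of the integrated stress response and one-carbon enzymes 7 of 26 rose and 8 fell, with 4 rises without old GSH-low library 2. Enzymes of serine and one-carbon synthesis were among the falls: Psat1 by 0.97 ± 0.08, Shmt1 by 0.92 ± 0.09 and Phgdh by 0.86 ± 0.12.

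Subunits of the respiratory chain that are encoded in the nucleus were lower by small amounts. Of 78 nuclear respiratory chain subunits 65 fell and 0 rose, with a median of -0.5. Ndufa9 (complex I) was at 23.3 and 20.1 RPKM in young and 12.8 and 13.5 in old GSH-low (-0.68 ± 0.10), Atp5a1 (the alpha subunit of ATP synthase) at 312.3 and 285.3 and 213.1 and 221.4 (-0.46 ± 0.09) and Uqcrb (complex III) at 131.7 and 100.3 and 63.8 and 73.8 (-0.74 ± 0.14). The count of falls was 43 without young library 1 and 17 without old GSH-low library 1. In old GSH-high 52 of the 78 subunits fell against young, with a median of -0.49, and 0 differed between the old fractions. The 8 mitochondrially encoded transcripts tested had a median of -0.2 in old GSH-low against young, and none passed. Cox1 (listed as COX1) was at 1053.6 and 847.1 RPKM in young and 908.1 and 838.0 in old GSH-low. Of 76 mitochondrial ribosomal proteins 36 fell, 18 without young library 1 and 6 without old GSH-low library 1. Of 31 genes of fatty acid oxidation 12 fell, among them Etfa (-0.74 ± 0.09), Cpt1a (-0.63 ± 0.11) and Acadl (-0.59 ± 0.09). Glycolysis and lactate transport moved the other way in part, with 8 rises among 29. The lactate exporter Slc16a3 was at 5.62 and 5.4 RPKM in young, 31.7 and 29 in old GSH-high and 27.5 and 25.2 in old GSH-low (2.07 ± 0.09), and Slc16a1 rose by 0.88 ± 0.10.

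Cytosolic ribosomal proteins had 43 falls and 0 rises among 81, with a median of -0.37. That count rests on single libraries: it was 16 without young library 1, 76 without young library 2 and 3 without old GSH-low library 1. In old GSH-high 35 of the 81 fell against young, with a median of -0.37, and 0 differed between the old fractions. Rpl29 was at 152.0 and 123.2 RPKM in young and 80.8 and 92.4 in old GSH-low (-0.66 ± 0.12). Proteasome subunits, which degrade tagged proteins, fell in 25 of 35, in 7 without old GSH-low library 1 and in 16 without old GSH-low library 2. In old GSH-high 7 subunits fell against young, with a median of -0.19 beside -0.35 in old GSH-low, and 0 differed between the old fractions. Psmd8 fell from 132.2 and 110.6 RPKM in young to 69.6 and 75.6 in old GSH-low (-0.73 ± 0.10) and Psma4 by 0.67 ± 0.10. Gene length moved with these falls. With all genes in 4 classes of about equal size by length, in the shortest class (52 to 2673 bases) 509 rose and 655 fell, and in the longest (6784 to 93092 bases) 487 rose and 271 fell. The median log2 fold change ran from -0.08 through -0.06 and -0.01 to 0.04 over the 4 classes. The 2 young libraries also differed from each other by length, with a median difference of library 1 over library 2 of 0.17 in the shortest and -0.07 in the longest class. The part of length in these falls was not tested.

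The identity genes of satellite cells were kept in part. Pax7 was at 7.93 and 7.64 RPKM in young, 8.09 and 8.65 in old GSH-high and 11.2 and 12.6 in old GSH-low, where both old GSH-low libraries were above all others. The log2 fold change was 0.55 ± 0.09 (adjusted p = 0.00206). Myf5 was at 79.5 and 75.8 RPKM in young and 76.3 and 78.6 in old GSH-low, and Cdh15, Vcam1 and Megf10 likewise did not pass, with log2 fold changes of 0.01, 0.05 and 0.08. Msc (musculin, a repressor of differentiation) fell from 178.0 and 154.9 RPKM in young to 58.8 and 67.2 in old GSH-low (-1.39 ± 0.10, adjusted p = 1.98e-05). Calcr, the calcitonin receptor that keeps satellite cells quiescent, fell from 40.2 and 46.6 to 22.9 and 19.8 (-0.99 ± 0.11). Eya1, a cofactor of muscle formation, fell by 0.87 ± 0.09, and Dag1 (dystroglycan, the receptor for laminin) by 0.90 ± 0.11. In the list of satellite cell identity 4 of 30 rose and 11 fell, with a median of -0.05, near that of all genes; without old GSH-low library 1 the counts were 2 and 7. The summed level of the list was 9276.2 to 10193.7 RPKM in young and 9095.5 to 9172.9 in old GSH-low.

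Of 31 regulators that hold satellite cells in quiescence 7 rose (22.6%) and 9 fell (29%), beside 18.1% and 18.7% of all genes. Spry1 and Spry2, which restrain growth factor signals, fell by 0.74 ± 0.09 and 1.08 ± 0.12, and Spry1 was at 203.7 and 206.3 RPKM in young and 126.7 and 118.1 in old GSH-low. Gas1 fell from 142.0 and 145.4 to 77.9 and 78 RPKM (-0.87 ± 0.08). Klf2, a factor of cellular rest, rose from 13.5 and 13.5 to 31.7 and 28.2 RPKM (1.09 ± 0.09) and was higher than in old GSH-high (18.5 and 16.9). In Notch signalling, which keeps satellite cells from differentiating, 6 of 24 rose and 7 fell; without old GSH-low library 1 the count of rises was 2. With all libraries the Notch rises and falls were 25% and 29.2% of the 24. Hey1, a direct target, fell from 25.6 and 24.9 to 15.7 and 16.5 RPKM (-0.62 ± 0.08). The ligand Dll1 fell by 0.57 ± 0.12, a call that ended without old GSH-low library 2. The target Heyl had a log2 fold change of 0.35 ± 0.09 that passed (adjusted p = 0.0127) and ended without old GSH-low library 1, and the co-activators Maml2 and Maml3 rose by 0.76 ± 0.09 and 0.95 ± 0.14.

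Genes of commitment to muscle moved in both directions. Myod1 was at 688.2 and 673.7 RPKM in young, 877.2 and 758.6 in old GSH-high and 630.0 and 594.0 in old GSH-low, a log2 fold change of -0.15 ± 0.10 (adjusted p = 0.266). Myog (myogenin) was at 12.6 and 9.88 RPKM in young, 5.18 and 7.09 in old GSH-high and 2.96 and 4.32 in old GSH-low, with young above both old groups and a log2 fold change of -1.40 ± 0.18 (adjusted p = 0.00047). Mymk (myomaker, the fusion protein of myoblasts) was at 3.78 and 3.06 RPKM in young and 0.348 and 0.797 in old GSH-low (-1.5 ± 0.16). The acetylcholine receptor subunits Chrna1 and Chrnd, targets of Myog, fell by 1.42 ± 0.12 and 1.20 ± 0.15. Transcripts of contractile proteins rose from low levels: Acta1 was at 14 and 13.9 RPKM in young, 10.9 and 11.5 in old GSH-high and 23.8 and 23.9 in old GSH-low (0.74 ± 0.08), and Tnnt3 (fast troponin T) at 1.77 and 1.67, 2.41 and 2.52 and 9.14 and 9.29 (1.91 ± 0.09). Of 14 myofibre markers 7 rose and 3 fell (Actn3, Atp2a1 and Tnnt1), with a summed level of 171.9 to 181.4 RPKM in young and 137.6 to 141.8 in old GSH-low, and their part in the rise of Acta1 was not tested. Among 21 genes of myogenic commitment 5 rose and 8 fell.

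Genes of the cell cycle were low in young cells and lower in old GSH-low. Of 35 genes of mitosis and S phase 20 fell and 6 rose, with a median of -0.42; the rises were 3 without old GSH-low library 1. Mki67, a marker of dividing cells, was at 1.69 and 1.81 RPKM in young, 0.398 and 0.882 in old GSH-high and 0.141 and 0.165 in old GSH-low (-1.25 ± 0.14), and Ccnb2 (a mitotic cyclin) at 4.86 and 5.91, 2.74 and 4.11 and 1.69 and 1.95 (-1.17 ± 0.15). In both genes the order was young, old GSH-high, old GSH-low without overlap. Mki67 passed the filter of 1 RPKM in 2 libraries through young alone. Top2a, at 1.54 and 1.81 RPKM in young and 0.182 and 0.313 in old GSH-low, likewise needed the young libraries to pass. The count of falls was therefore in part fixed by the filter. The D-type cyclins moved apart: Ccnd1 fell from 32 and 21.8 to 9.39 and 10.1 RPKM (-1.35 ± 0.17), and Ccnd2 rose from 0.352 and 0.566 to 3.13 and 3.08 (1.5 ± 0.11). Among CDK inhibitors and p53 targets 7 of 36 rose and 14 fell, and without old GSH-low library 1 these were 3 and 6. Trp53inp2 fell by 0.97 ± 0.11, and Perp, a target in cell adhesion, rose from 0.792 and 0.759 to 5.45 and 4.48 RPKM (1.74 ± 0.11).

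Immediate early genes, switched on within minutes by stimuli or by cell isolation, did not move as 1 group. Of 47 tested 11 rose and 14 fell, with a median of -0.09, and quantile normalisation gave 17 rises. Fos was at 1004.9 and 897.2 RPKM in young, 420.6 and 402.3 in old GSH-high and 890.8 and 889.5 in old GSH-low. The old GSH-high libraries stood apart at the low end, and old GSH-low did not pass against young (-0.09 ± 0.10, adjusted p = 0.473). Egr1 was at 2375.7 and 2302.0 RPKM in young, 1352.5 and 1216.3 in old GSH-high and 1310.3 and 1257.7 in old GSH-low (-0.86 ± 0.10, adjusted p = 0.00029), low in both old fractions. Nr4a2, an orphan nuclear receptor, rose from 4.97 and 5.85 to 23 and 20.9 RPKM (1.84 ± 0.10). Against young 28 members fell in old GSH-high, and 16 were higher in old GSH-low than in the other old fraction.

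Genes of glutathione synthesis moved in both directions, in cells that were gated on a dye for reduced thiols. Gclc, the catalytic subunit of the rate-limiting enzyme glutamate-cysteine ligase, was at 38.9 and 38.9 RPKM in young, 65.2 and 52.2 in old GSH-high and 56.8 and 51.3 in old GSH-low (0.46 ± 0.11, adjusted p = 0.0128), with both old fractions above young. The call ended without old GSH-low library 1. Its modifier subunit Gclm was at 52.9 and 50.3, 73.9 and 71.3 and 64.3 and 59.3 (0.26 ± 0.08, adjusted p = 0.0417), a call that ended in 7 settings, which are the fit of only the 4 libraries compared, the replicate block and the fits without any 1 library other than young library 1. Gss, which adds glycine in the last step, was at 6.73 and 6.07 RPKM in young and 5 and 4.99 in old GSH-low (-0.30 ± 0.09, adjusted p = 0.0289), a call that ended in 8 settings, which are the fit of only the 4 libraries compared, the replicate block, scaling by library size only and the fits without any 1 library other than young library 2. The cystine importer Slc7a11 was at 1.36 and 1.18 RPKM in young, 0.726 and 0.68 in old GSH-high and 0.353 and 0.379 in old GSH-low (-0.73 ± 0.10, adjusted p = 0.00069), and its heavy chain Slc3a2 at 174.4 and 166.9 and 220.1 and 233.0 in young and old GSH-low (0.41 ± 0.09, a call that ended without old GSH-low library 2). Slc7a11 passed the filter of 1 RPKM in 2 libraries through young alone, so its fall was in part fixed by it. The glutathione breakdown peptidases Dpep1 and Anpep rose by 1.55 ± 0.15 and 1.10 ± 0.11 from about 1 RPKM or less. Of the methionine cycle, which feeds cysteine synthesis, Ahcy fell by 0.86 ± 0.09, Mat2b by 0.71 ± 0.09 and Mtr by 0.60 ± 0.10, while Cbs, the entry to cysteine, rose by 0.87 ± 0.11. In glutathione synthesis and cysteine supply 10 of 25 rose and 6 fell, and without old GSH-low library 1 the rises were 5. Between the old fractions 1 member was higher in old GSH-low (Anpep) and 0 lower. Anpep passed the filter of 1 RPKM in 2 libraries through old GSH-low alone. Its rise and its difference from old GSH-high were therefore in part fixed by it.

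Enzymes that use glutathione were as divided, with 16.7% that rose and 30% that fell, beside 18.1% and 18.7% of all genes. Of 30 glutathione-using enzymes 5 rose and 9 fell; without old GSH-low library 1 the counts were 2 and 5, and the rises were 8 without young library 1. Mgst1 (a microsomal transferase) rose from 8.8 and 7.54 to 20.9 and 16 RPKM (1.08 ± 0.15), and Gpx7, Gstm7 and Gstm5 fell by 0.91 ± 0.18, 0.85 ± 0.14 and 0.64 ± 0.11. The peroxidase Gpx4, which protects membrane lipids, was at 132.6 and 104.3 RPKM in young and 121.4 and 135.7 in old GSH-low (0.13 ± 0.12, adjusted p = 0.44), and Gsr, which reduces glutathione disulfide, at 15.8 and 15.9 and 20.9 and 17.1 (0.24 ± 0.11, adjusted p = 0.112). Among the exporters that carry glutathione conjugates and dyes out of cells Abcc1 was at 8.43 and 8.88 RPKM in young and 8.75 and 8.86 in old GSH-low (adjusted p = 0.87), and 2 of 9 genes in the list rose. These were Slco2a1, a prostaglandin carrier (1.08 ± 0.17), and Abcc9, which regulates potassium channels and marks pericytes (1.63 ± 0.15). Of 27 members of the thioredoxin, peroxiredoxin and superoxide enzymes 4 rose and 8 fell, with 15 falls without young library 2 and 4 without old GSH-low library 1. With all libraries the rises and falls were 14.8% and 29.6% of the 27. Prdx2 fell by 0.78 ± 0.14 and Cat (catalase) by 0.56 ± 0.09, and the extracellular Sod3 rose by 0.44 ± 0.09.

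Targets of NRF2, the master factor of the antioxidant response, rose more often than they fell. Of the 44 genes of NRF2, its regulators and targets 19 rose and 9 fell, and the rises were 9 without old GSH-low library 1 and 12 without young library 2. Hmox1 (heme oxygenase 1) was at 659.9 and 597.3 RPKM in young, 1493.5 and 1337.1 in old GSH-high and 1084.4 and 1020.3 in old GSH-low (0.74 ± 0.10, adjusted p = 0.000812). Aldh3a1, an aldehyde dehydrogenase, was at 4.2 and 4.39 RPKM in young, 20.3 and 19.6 in old GSH-high and 15.3 and 15.1 in old GSH-low (1.61 ± 0.08). In these 2 genes old GSH-high had the highest libraries. Nfe2l2, which encodes NRF2, was at 64.6 and 62.4 RPKM in young and 79.4 and 78.2 in old GSH-low (0.31 ± 0.08, adjusted p = 0.0143), a call that ended without either old GSH-low library. Osgin1 and Bach1, the competitor of NRF2, fell by 0.70 ± 0.09 and 0.57 ± 0.10. In NADPH supply, the source of electrons for glutathione reduction, Idh2 fell from 62.8 and 59.2 to 25.6 and 28.2 RPKM (-1.15 ± 0.09, adjusted p = 2.79e-05), while Me1, Tkt and H6pd rose by 0.74 ± 0.09, 0.85 ± 0.09 and 0.86 ± 0.17. G6pdx, the entry to the pentose phosphate pathway, was at 8.36 and 8.69 RPKM in young, 12.1 and 12.2 in old GSH-high and 8.06 and 7.8 in old GSH-low, not past the threshold against young (adjusted p = 0.402) and below old GSH-high (adjusted p = 0.00413). Of 33 genes of iron handling 11 rose and 6 fell. The iron exporter Slc40a1 rose by 0.90 ± 0.09, Acsl4, which loads membranes with oxidisable lipids, by 1.06 ± 0.14, and the importer Slc11a2 fell by 0.61 ± 0.08.

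The largest falls other than collagens and chaperones were in genes of several functions. Ret (the receptor kinase for GDNF; chromosome 6, 118151745 to 118197718) was at 12.4 and 14.7 RPKM in young, 3 and 3.07 in old GSH-high and 2.52 and 2.37 in old GSH-low (-2.07 ± 0.10, adjusted p = 1.84e-06). Its ligand Gdnf went the other way, from 18.4 and 19.5 RPKM in young to 49.8 and 46.7 in old GSH-high and 43.7 and 36.8 in old GSH-low (1.04 ± 0.10). Atp2a3 (a calcium pump of the endoplasmic reticulum) fell by 2.00 ± 0.14, Dgkg (a diacylglycerol kinase) by 1.95 ± 0.11, Ttyh1 by 1.93 ± 0.08, Tac4 by 1.77 ± 0.18, Adra1b (an alpha-1 adrenergic receptor) by 1.67 ± 0.11 and C1qtnf6 by 1.66 ± 0.12. Itm2a, a membrane protein of muscle precursors, was at 624.6 and 551.9 RPKM in young, 188.7 and 249.7 in old GSH-high and 154.1 and 203.1 in old GSH-low (-1.72 ± 0.16). Stmn1 (stathmin, which takes microtubules apart) fell from 14.2 and 12.7 to 3.44 and 3.27 RPKM (-1.73 ± 0.17). Of these genes only Ttyh1 differed between the old fractions (adjusted p = 0.039), and all 9 that fell were low in both old fractions.

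Growth and patterning signals were counted by pathway. In TGF-beta and BMP signalling 18 of 52 rose and 6 fell; without old GSH-low library 1 the rises were 10, and without old GSH-low library 2 the falls were 2. Mstn (myostatin, the inhibitor of muscle growth) was at 0.073 and 0.0566 RPKM in young and 0.0855 and 0.239 in old GSH-high, near 0 in all 4, and at 3.32 and 2.67 in old GSH-low (1.90 ± 0.12). Mstn passed the filter of 1 RPKM in 2 libraries through old GSH-low alone, so its rise was in part fixed by it. Its antagonist Fst (follistatin) was at 0.437 and 0.493 RPKM in young, 4.98 and 4.19 in old GSH-high and 5.31 and 4.07 in old GSH-low (1.95 ± 0.13), so that it was raised in both old fractions. Chrdl1, a binder of BMPs, rose by 2.23 ± 0.13, and the activin subunits Inhba and Inhbb by 1.71 ± 0.10 and 1.14 ± 0.09. In Wnt signalling 15 of 37 rose and 2 fell, with 9 rises without old GSH-low library 1. The rises were led by secreted inhibitors: Sfrp4 was at 0.866 and 1.58 RPKM in young and 13.3 and 13 in old GSH-low (2.69 ± 0.14), and Dkk3, Wif1 and Sfrp1 rose by 2.47 ± 0.11, 2.19 ± 0.14 and 1.06 ± 0.10. Igf1 fell from 5.2 and 5.33 to 3.1 and 2.56 RPKM (-0.71 ± 0.10) and Igf2 rose from 0.842 and 0.735 to 2.15 and 2.58 (0.91 ± 0.10). In the list of the IGF axis 9 of 23 rose and 2 fell, with 4 falls without young library 1. In the list of FGF receptors and Sprouty feedback 5 of 21 rose and 5 fell, with 3 falls without any 1 library other than young library 1. With all libraries 23.8% of the FGF list rose and 23.8% fell, beside 18.1% and 18.7% of all genes. The imprinted growth genes Mest and Grb10 fell by 1.47 ± 0.17 and 0.85 ± 0.14.

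Markers of other cell types that a muscle sort could hold are set side by side for both old fractions, since they moved with several groups above. Endothelial markers went in opposite directions. Of 31 tested 19 fell and 2 rose in old GSH-low against young, with a median of -0.47, while 27 rose and 0 fell in old GSH-high against young, with a median of 0.74. The count of falls was 11 without old GSH-low library 2. Cldn5 (claudin-5, of endothelial junctions) was at 5.65 and 5.58 RPKM in young, 8.22 and 10.4 in old GSH-high and 1.84 and 1.76 in old GSH-low (-1.24 ± 0.11), and the 3 groups did not overlap. Ly6a, which encodes the Sca1 antigen of the sort, was at 9.2 and 8.42 RPKM in young, 24.8 and 27.9 in old GSH-high and 6.55 and 4.93 in old GSH-low (-0.55 ± 0.12, adjusted p = 0.0091), a call that ended without old GSH-low library 2. Pecam1, which encodes CD31, was at 1.81 and 3.02, 6.67 and 6.86 and 1.41 and 0.877 in the same order (adjusted p = 0.0188 against young, ended without young library 2 or old GSH-low library 2). The summed level of the endothelial markers was 218.0 to 247.9 RPKM in young, 414.0 to 416.5 in old GSH-high and 232.5 to 265.6 in old GSH-low. A large part of the old GSH-low sum is Rgcc, which rose. It was at 52.7 and 41 RPKM in young, 77.5 and 71.5 in old GSH-high and 114.1 and 107.0 in old GSH-low.

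Fibro-adipogenic progenitors, which lie in the connective tissue of muscle, share many matrix genes with tendon. Of 30 of their markers 20 rose and 5 fell, with a median of 0.93 and a summed level of 1248.8 to 1375.1 RPKM in young, 1688.4 to 1773.6 in old GSH-high and 2309.9 to 2514.8 in old GSH-low. The defining receptor Pdgfra was at 0.135 and 0.328 RPKM in young, 1.33 and 1.17 in old GSH-high and 1.62 and 1.01 in old GSH-low, so that it rose and stayed low. Serpinf1 rose from 32.9 and 27.8 to 246.7 and 260.4 RPKM (3.03 ± 0.10) and Apod, a lipid carrier of fibroblasts, by 3.88 ± 0.15. Of 16 pericyte and smooth muscle markers 11 rose and 3 fell; Pdgfrb rose from 1.31 and 1.95 to 14.2 and 11.5 RPKM (2.40 ± 0.15), Rgs5 by 1.70 ± 0.10, and Acta2 fell by 1.05 ± 0.14. Their summed level was 1011.1 to 1027.8 RPKM in young and 747.3 to 782.7 in old GSH-low, of which Des, also a muscle gene, is the greater share. Schwann and glial markers rose in 11 of 14 and fell in 1 (Egr2), from low levels: Scn7a was at 0.374 and 0.327 RPKM in young and 7.29 and 5.34 in old GSH-low (2.42 ± 0.15). Of 9 adipocyte markers 3 rose and 2 fell in old GSH-low against young, and 6 rose in old GSH-high. Cfd (adipsin) was at 0.0369 and 0.0738 RPKM in young, 59.7 and 41.9 in old GSH-high and 1.39 and 0.834 in old GSH-low, where the value of young library 1 stands in the deposited table in place of 0 reads. Red cell transcripts were present in the old libraries, with Hba-a1 at 1.03 and 1.15 RPKM in young, 4.97 and 5.39 in old GSH-high and 10.1 and 3.91 in old GSH-low. The part of these cell types in the matrix, growth factor and immune results was not tested.

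**Figure D5:**
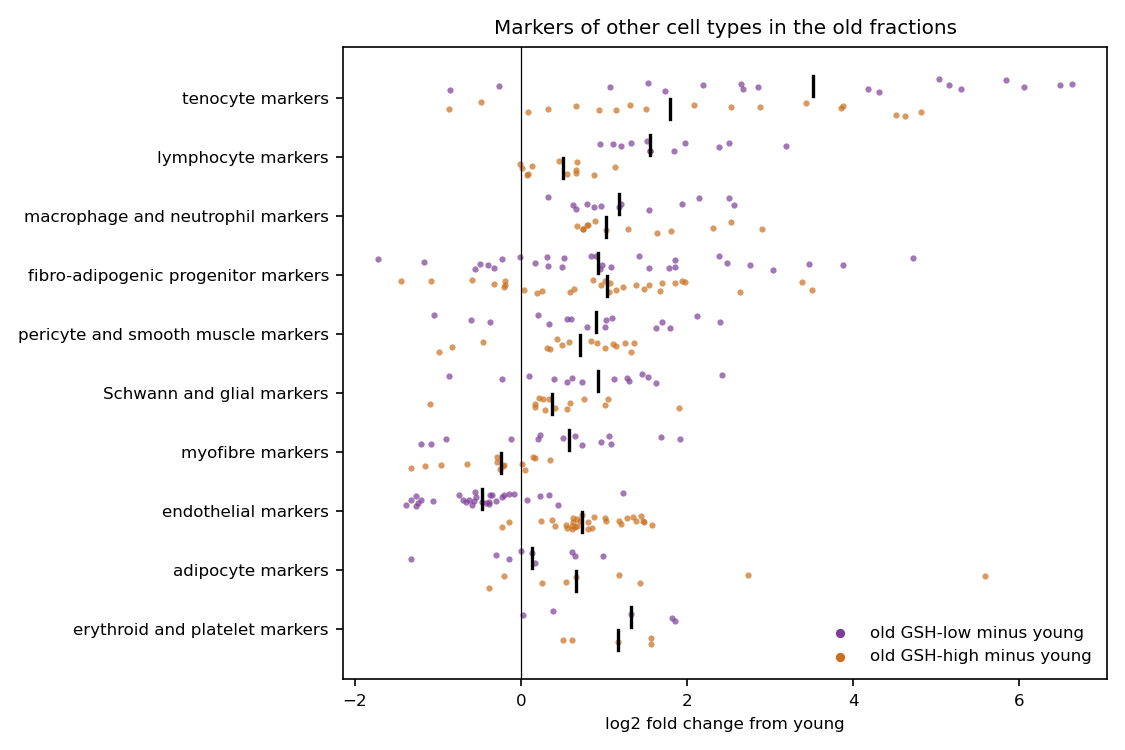
Log2 fold changes of the markers of 10 other cell types, one row each: purple dots are old GSH-low minus young, orange dots are old GSH-high minus young, and black bars are medians. Endothelial markers lie on opposite sides of 0 in the 2 old fractions (medians -0.47 and 0.74), and tenocyte and lymphocyte markers lie furthest to the right in old GSH-low.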

How the data were processed

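The authors deposited RPKM per gene for 12067 genes in 6 libraries. Per the submitters' processing notes, which give no versions or order, Trim Galore, STAR, featureCounts and edgeR were used with mm10. Each deposited RPKM value is scaled to a library size and to gene length. Strandedness of the counting is not given in the sources used here. In the deposited table, 230 values in 144 genes are 0.5 times the lowest value of the gene in the other libraries and stand where whole reads come to 0; 11814 genes (97.9%) gave whole reads within 0.02 reads at GENCODE M21 lengths.

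Genes with at least 1 RPKM in 2 or more libraries were kept (10609). A gene under 1 RPKM in 1 group passed this filter through libraries of other groups. Its difference from them was then in part fixed by the filter. Values were log2(RPKM + 1) and were fitted with limma 3.58.1 (trend) in R 4.3.3, with 1 mean for each of the 3 groups, 3 residual degrees of freedom and Benjamini-Hochberg adjustment over all genes, called under 0.05. In simulated data with 200 changed genes the fit recovered 200, with 13 false calls. The changed genes had a mean of at least 5 RPKM and moved by 2-fold or 4-fold, with a spread between libraries set in advance. Recovery of smaller changes, of less abundant genes or under a wider spread was not tested. Nothing says that libraries of 1 group came from separate sorting days, so p-values measure the spread between these libraries.

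The comparison, its members and the 61 gene lists were chosen with earlier results of these data known. Named genes are the 15 largest rises and 15 largest falls with a group mean of at least 5 RPKM and no overlap, up to 6 changed members per list with the lowest p, and 16 panel genes; other genes named were chosen after their values were seen. Same-numbered libraries did not deviate together (correlations -0.142, -0.263 and 0.069), so libraries were not paired by number; whether the old fractions share animals is not given in the sources used here. Positions are on GRCm38, and promoters are from RefSeq on GRCm38.p6. Alternatives were pseudocount, filter, scaling, the libraries fitted, a replicate block and limma-voom on the recovered reads.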

Additional observations from a re-analysis of the deposited data

Results flagged for a closer look

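Some genes named in the report were called in opposite directions against young cells in the 2 old fractions, which share the young libraries. The difference between the old fractions was tested by its own contrast in limma with Benjamini-Hochberg adjustment. Cldn5, of endothelial junctions, was lower in old GSH-low than in the other old fraction by a log2 difference of -1.87 (adjusted p = 4.97e-05), Pecam1, which encodes CD31, by -1.87 (adjusted p = 0.000373) and Ly6a, which encodes Sca1, by -2.03 (adjusted p = 5.1e-05). The sort excluded cells with CD31 or Sca1 at the surface. Acta1, skeletal muscle actin, was higher in old GSH-low by 1.03 (adjusted p = 0.000149). Over all genes tested 40 had such opposite calls, of which 31 fell in old GSH-low and rose in old GSH-high, and 9 did the reverse.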

How the results depend on the processing

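The counts of changed genes were 3901 in all, with 1919 rises and 1982 falls, and 473 rises and 119 falls of at least 2-fold. Leaving out each library in turn gave 2067 to 4295 changed genes, 1248 to 1997 rises and 819 to 2298 falls, and for 2-fold or more 445 to 513 rises and 111 to 139 falls; the lowest counts of changed genes came without old GSH-low library 1. A pseudocount of 0.1 RPKM gave 774 rises and 214 falls of at least 2-fold, and limma-voom on the recovered reads gave 812 and 232. A filter of 5 RPKM, with fewer genes tested, gave 1000 rises, and 265 of at least 2-fold. With the replicate number as a block 3349 genes changed, 1707 up and 1642 down, with 472 and 119 past 2-fold; since libraries were not paired by number, a call lost there is not described as a weaker effect. Scaling by library size only gave 2254 rises and 1492 falls. The cause of these shifts was not tested. Every other count stayed within 1.5 times. Of 242 named genes called, 9 lost the call without old GSH-low library 1, 11 without old GSH-low library 2 and at most 3 in each other setting; no named call reversed under any alternative run. Depth of 46.97 to 68.75 M reads limits genes under 1 RPKM in young cells, whose log2(RPKM + 1) differences understate the ratio.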

Other observations

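Genes of the circadian clock, the loop of activators and repressors that follows the day, differed between old GSH-low and young cells in both directions. Of 23 tested 7 rose and 3 fell, with 5 falls without young library 1. Nr1d1 (Rev-erb alpha, which represses Arntl) was at 256.9 and 266.5 RPKM in young, 158.4 and 154.1 in old GSH-high and 151.7 and 152.8 in old GSH-low (-0.78 ± 0.08, limma with Benjamini-Hochberg adjusted p = 0.000144). Arntl, an activator of the loop, fell from 18.2 and 19.7 to 13.8 and 13.2 RPKM (-0.46 ± 0.09), while the repressors Per2 and Cry1 rose by 0.80 ± 0.13 and 0.52 ± 0.08 and the output factor Hlf by 0.79 ± 0.12. In Nr1d1, Per2 and Cry1 all 4 old libraries lay on the same side of the young ones. The hour at which tissue was taken is not given in the sources used here.

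Neural guidance and trophic genes also moved, at levels mostly under 10 RPKM. Of 18 synapse and neural adhesion molecules 4 rose and 6 fell. The guidance cue Slit3 was at 0.323 and 0.283 RPKM in young, 3.67 and 2.62 in old GSH-high and 7.14 and 5.92 in old GSH-low (2.53 ± 0.14), and Cntfr, a receptor for ciliary neurotrophic factor, at 0.781 and 1.19, 2.35 and 3.79 and 8.86 and 6.5 (2.12 ± 0.19). Both were higher in old GSH-low than in the other old fraction (adjusted p = 0.00627 and 0.011). Ntf3 (neurotrophin-3) fell from 47.2 and 41.9 to 23 and 25.1 RPKM (-0.86 ± 0.11). Among 24 imprinted growth genes 6 rose and 8 fell, with 3 rises without old GSH-low library 1. Dlk1, a membrane ligand of the Notch family, fell from 2.91 and 2.59 to 0.833 and 0.977 RPKM (-0.98 ± 0.10) and Plagl1, a zinc finger factor of the imprinted network, from 15.7 and 17.6 to 9.36 and 9.57 (-0.75 ± 0.10). Dlk1 passed the filter of 1 RPKM in 2 libraries through young alone, so its fall was in part fixed by it.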
